A study of Mus musculus with 12 samples.

Results

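The 50 genes described here encode 2-oxoglutarate dependent dioxygenases outside the TET family: histone lysine demethylases, prolyl and lysyl hydroxylases, AlkB family members, and smaller groups that act on carnitine precursors, fatty acids and single amino acids of other proteins. They were chosen by name, as known members of the enzyme class, and matched by symbol to the deposited count table. The table lists 49671 genes, of which 17812 passed the filter on low counts, and the 50 dioxygenase genes were all among them. Each enzyme of this class consumes oxygen and 2-oxoglutarate, also called alpha-ketoglutarate, and uses iron at its active site. Isocitrate dehydrogenase 1 (IDH1) makes 2-oxoglutarate, and its R132H mutant, found in human glioma, turns 2-oxoglutarate into 2-hydroxyglutarate, a competitor of 2-oxoglutarate at these enzymes. The libraries measure the RNA of the enzymes; enzyme activity and metabolites were not measured in the files used here.

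The study asked which glioma subtype IDH1 mutant and wild-type mouse tumours resemble. RNA from formalin-fixed, paraffin-embedded brain was sequenced as 12 libraries, 3 each from tumours labelled IDH1_R132H, IDH1WT and PDGFA (platelet-derived growth factor A, a glioma driver) and from normal brain. All 12 came from mice whose floxed genes include Cdkn2a and Atrx. The tumour-bearing mice carried the N::TVA transgene, which gives cells the avian receptor that lets an avian viral vector infect them, and the normal brains came from mice labelled TVA negative. The labels give no sex, age or litter, leave unsaid whether PDGFA was also given in the IDH1 tumours, and do not say that the 3 libraries of a group came from separate mice, so the p-values measure only the spread between these libraries. Numbers 1 to 3 within a group only name a library.

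Total counts ran from 6507923 to 14277395 per library, and the 50 genes together held between 2260 and 2620 CPM (the count scaled by the adjusted library size) in each of the 12. The labelled tissue was checked against marker lists: 12 neuronal markers summed to 7720 to 8080 CPM in normal brain and 3870 to 8950 in tumours, and 12 mitosis genes to 13.7 to 20.5 and 126 to 888 CPM. Library PDGFA 1 stood apart from the other tumours. It had the highest neuronal sum (8950 CPM), the lowest mitosis sum of the 9 tumours, and 536 CPM over 10 oligodendrocyte precursor markers against 504 to 533 in normal brain. It also had 11600 CPM over 10 myelin markers, 1010 over 10 astrocyte markers and 30.7 over 12 microglial and macrophage markers, where normal brain had 3530 to 3590, 4890 to 5010 and 112 to 184. In IDH1_R132H 3, 35.6% of the total count fell on the single locus Gm42418, against 0.218% to 0.855% elsewhere. Results are therefore also given without those 2 libraries. Bulk RNA cannot tell fewer cells of a type from less RNA per cell.

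In tumours against normal brain, edgeR called 3 of the 50 genes at an adjusted p under 0.05. Plod1, a collagen lysyl hydroxylase, and Egln3, an oxygen-sensing prolyl hydroxylase, were higher, and P4ha2, a collagen prolyl hydroxylase, was lower. The share of all 17812 genes called was 5.22%, with 3.71% higher and 1.5% lower, so 3 of 50 is close to the background. At an unadjusted p under 0.05 there were 17 of the 50, 11 of them higher, against 23.6% of all genes and 13.3% higher. The median log2 fold change of the 50 was 0.09, with 29 above 0 and 21 below, and the range ran from -0.77 for P4ha2 to 1.34 for Plod2. DESeq2 called 7 of the 50 and 11.7% of all genes, and limma voom with sample weights 18 of the 50 and 33.7% of all genes, so these counts too were near their own background.

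**Figure D1:**
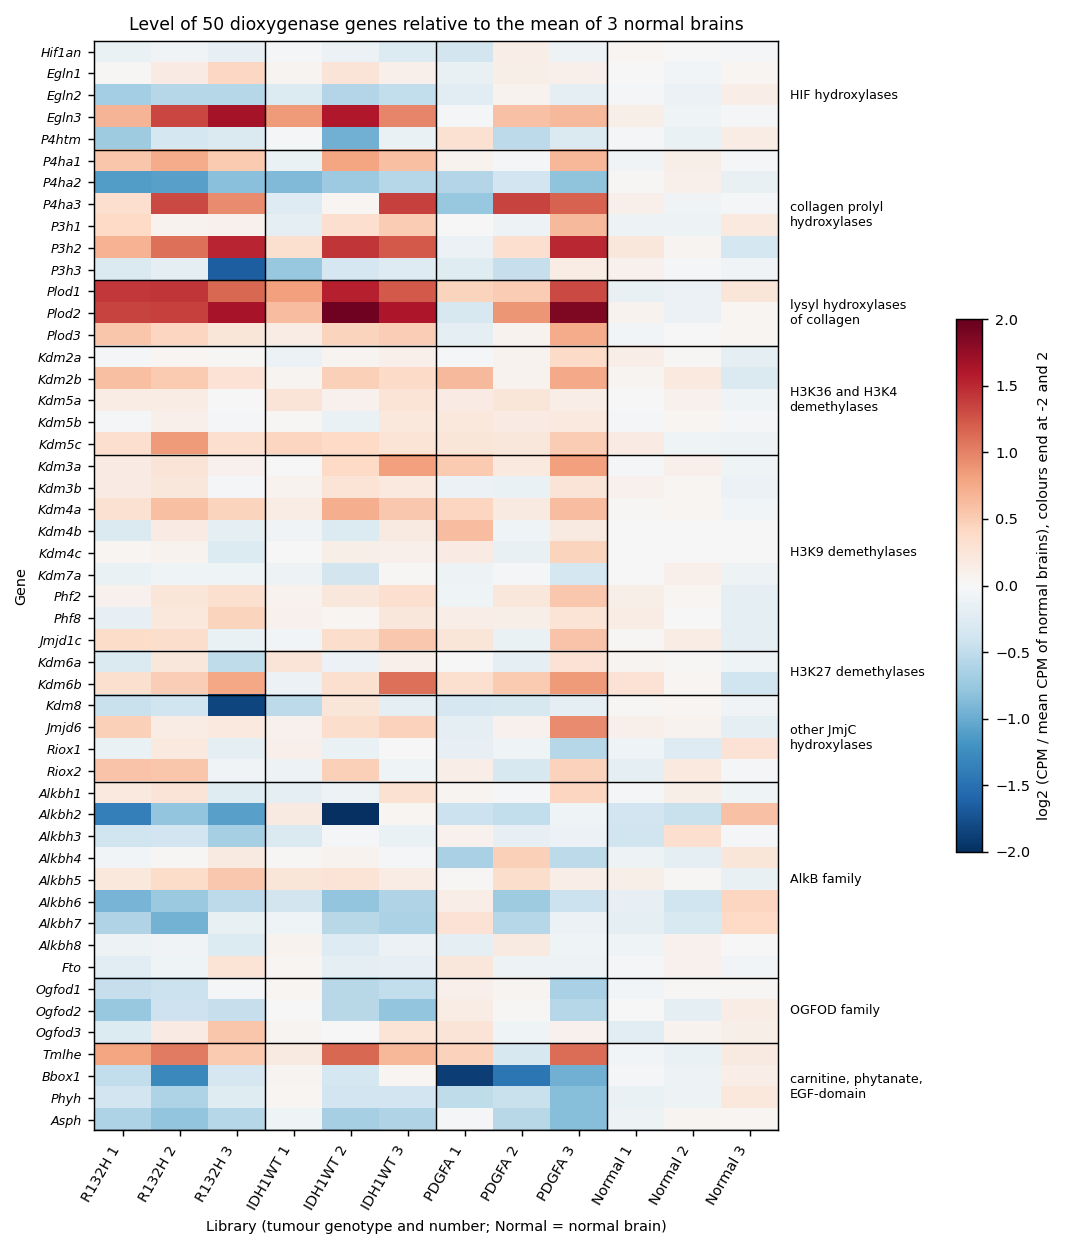
Level of each of the 50 genes (rows, ordered by role) in each of the 12 libraries (columns) as log2 of CPM over the mean CPM of the 3 normal brains; red is above and blue below that mean, and colours end at -2 and 2. The rows of Plod1, Plod2 and Egln3 are red over most tumours, P4ha2 is blue in all 9, and most demethylase rows are pale.

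Sequences are shown for the 4 genes that passed the test in any comparison, together with P4ha1, the paralog of P4ha2. Each is the stretch of 250 bases just before the RefSeq start (GRCm38.p6), read 5′ to 3′ on the gene's strand. Capitals mark ACGTG or GCGTG on either strand (CACGT or CACGC as printed), the core letters that hypoxia-inducible factor (HIF) can bind; CACGTG would be counted on both strands as overlapping matches. Egln2 has a further RefSeq start, with a window at chr7:27165729-27165978 that holds 1 GCGTG and is not printed. The P4ha2 window lies inside the span of the GENCODE gene, between exons of a longer transcript model, and overlaps no GENCODE exon.
Plod1, chr4:147936777-147937026, minus strand: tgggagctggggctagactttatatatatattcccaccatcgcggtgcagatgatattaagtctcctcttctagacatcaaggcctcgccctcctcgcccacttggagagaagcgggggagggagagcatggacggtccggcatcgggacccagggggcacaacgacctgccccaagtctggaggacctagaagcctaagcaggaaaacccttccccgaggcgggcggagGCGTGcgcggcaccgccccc
Egln3, chr12:54203875-54204124, minus strand: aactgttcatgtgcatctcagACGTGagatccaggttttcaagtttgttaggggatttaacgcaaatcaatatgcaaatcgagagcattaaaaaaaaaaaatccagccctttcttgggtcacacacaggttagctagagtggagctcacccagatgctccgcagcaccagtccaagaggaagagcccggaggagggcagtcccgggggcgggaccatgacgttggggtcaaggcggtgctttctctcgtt
P4ha2, chr11:54100674-54100923, plus strand: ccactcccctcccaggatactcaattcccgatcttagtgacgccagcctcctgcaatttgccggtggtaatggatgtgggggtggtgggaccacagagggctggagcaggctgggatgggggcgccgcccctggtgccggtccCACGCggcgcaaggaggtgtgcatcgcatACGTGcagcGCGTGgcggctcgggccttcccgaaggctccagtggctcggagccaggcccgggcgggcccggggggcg
P4ha1, chr10:59323046-59323295, plus strand: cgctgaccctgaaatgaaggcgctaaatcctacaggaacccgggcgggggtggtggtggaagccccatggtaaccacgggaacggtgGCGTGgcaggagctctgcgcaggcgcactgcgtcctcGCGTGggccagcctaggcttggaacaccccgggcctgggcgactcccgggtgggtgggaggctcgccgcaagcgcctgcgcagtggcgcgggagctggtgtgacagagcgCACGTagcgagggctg
Egln2, chr7:27166803-27167052, minus strand: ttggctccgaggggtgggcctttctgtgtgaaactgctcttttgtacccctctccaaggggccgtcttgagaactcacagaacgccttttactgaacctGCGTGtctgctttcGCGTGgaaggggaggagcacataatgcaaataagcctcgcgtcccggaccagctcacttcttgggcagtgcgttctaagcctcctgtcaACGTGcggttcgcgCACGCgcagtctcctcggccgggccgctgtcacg

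These letters occurred in 24 of the 40 dioxygenase genes that had a RefSeq window (60%), and in 29 of their 51 windows (56.9%), against 38.6% of all 32851 windows of the same length. They stood before Plod1 and Egln3, called higher in tumours, before P4ha2, called lower, and before Egln2, called lower in IDH1_R132H tumours, so their presence does not separate the directions. A match is a description of the letters and not evidence of binding.

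Collagen lysyl hydroxylases add the hydroxyl groups through which collagen fibres are cross-linked and glycosylated. Plod1 was the member of the 50 with the smallest p, and it stood higher in all 9 tumours than in any normal brain. Its level was 40.5, 41.3 and 33.9 CPM in IDH1_R132H tumours, 26.9, 44.8 and 35.9 in IDH1WT, 20.9, 21.7 and 38.2 in PDGFA, and 13.7, 14 and 18.1 in normal brain. The lowest tumour, PDGFA 1, was thus above the highest normal brain. The log2 fold change for tumours was 1.12 (SE 0.22, edgeR adjusted p = 0.02), or 2.18-fold. It was 1.2 without IDH1_R132H 3 and PDGFA 1. Leaving out any 1 normal brain ended the call (1.04, 1.06 and 1.26, adjusted p = 0.14, 0.13 and 0.082 without normal brain 1, 2 and 3), while the call held in the 9 fits that left out 1 tumour.

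By tumour group, Plod1 was 1.33 higher than normal brain in IDH1_R132H (SE 0.26, edgeR adjusted p = 0.019), 1.22 higher in IDH1WT (SE 0.26, adjusted p = 0.037) and 0.81 above it in PDGFA (SE 0.26, adjusted p = 0.23), all on the log2 scale. These 3 comparisons share the 3 normal brains. IDH1_R132H and IDH1WT tumours differed by 0.11 with a 95% confidence interval of -0.43 to 0.65, which includes 0.

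Plod2, the lysyl hydroxylase of the collagen telopeptides, had the highest log2 fold change of the 50 in this comparison but did not pass the test. It stood at 21.3, 21.6 and 26.2 CPM in IDH1_R132H tumours, 12.8, 32.1 and 25.5 in IDH1WT, 6.71, 15.4 and 30.6 in PDGFA, and 8.78, 7.68 and 8.58 in normal brain. PDGFA 1 lay below every normal brain and the other 8 tumours lay above. The log2 fold change was 1.34 with an SE of 0.39 (edgeR adjusted p = 0.062); DESeq2 called it. Plod3, which also glycosylates hydroxylysine, was the most abundant of the 3 per kilobase of exon (median 5.43 CPM per kilobase, against 4.5 for Plod1 and 3.4 for Plod2). Per kilobase of longest transcript Plod3 and Plod1 were nearly level, at 7.49 and 7.43, and Plod2 stood at 5.01.

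Plod3 ranged from 25.3 to 31.6 CPM in IDH1_R132H tumours (31.6, 29.1 and 25.3), and stood at 23.9, 29.3 and 30.2 in IDH1WT, 18.8, 22.6 and 36.1 in PDGFA and 20.6, 21.7 and 22.2 in normal brain. The groups overlapped through PDGFA 1, and the difference of 0.35 (SE 0.18, edgeR adjusted p = 0.27) did not pass. Another gene's exons cover 11.9% of the exon bases of Plod3, and no strand setting is stated, so part of its count is uncertain. Summed over the 3 lysyl hydroxylases, normal brains held 43.1, 43.4 and 48.9 CPM, and the tumours 46.4 (PDGFA 1) to 106 CPM. The ratio of Plod1 to Plod3 per kilobase was 0.432 to 0.545 in normal brains and 0.641 to 1.02 in tumours, without overlap. That of Plod2 to Plod3 was 0.295 to 0.358 in normal brains and 0.298 to 0.918 in tumours, with overlap. The size of both ratios depends on the length used. Plod1 alone did not overlap either, and how often ratios of other gene pairs fail to overlap was not computed.

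The 6 collagen prolyl hydroxylases did not move together. P4ha1 and P4ha2 are alternative catalytic subunits of the enzyme that hydroxylates prolines of the collagen helix, and P4ha2 was the single member of this group to pass the test. It stood at 5.72, 5.8 and 6.91 CPM in IDH1_R132H tumours, 6.69, 7.44 and 8.37 in IDH1WT, 8.27, 9.45 and 7.07 in PDGFA, and 12.6, 13.3 and 11.2 in normal brain. All 9 tumours lay below all 3 normal brains. The log2 fold change was -0.77 (SE 0.16, edgeR adjusted p = 0.021), and -0.79 without IDH1_R132H 3 and PDGFA 1. Without normal brain 1, 2 or 3 it was -0.76, -0.72 and -0.84 and the call ended (adjusted p = 0.14, 0.15 and 0.082). It fell by 1.01 in IDH1_R132H against normal brain (SE 0.2, adjusted p = 0.02), and the estimates were -0.72 for IDH1WT (adjusted p = 0.079) and -0.58 for PDGFA (adjusted p = 0.28) with the same normal brains.

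P4ha1, at a median of 10.3 CPM per kilobase of merged exons, was above P4ha2 at 1.26 and was the most abundant gene of this group. Per kilobase of longest transcript the medians were 10.5 and 2.57, so the size of this gap depends on the length used. It stood at 49.7, 56.3 and 48.2 CPM in IDH1_R132H tumours, 30.7, 58 and 51.3 in IDH1WT, 35.3, 33 and 53.6 in PDGFA, and 31.9, 36.5 and 32.6 in normal brain. IDH1WT 1, PDGFA 1 and PDGFA 2 lay within or below the range of normal brain, and the difference of 0.45 (SE 0.2, edgeR adjusted p = 0.19) did not pass. The ratio of P4ha1 to P4ha2 per kilobase of merged exons did not overlap between tumours and normal brain. It was 3.84 to 4.41 in normal brains (median 4.17) and 5.31 to 14.7 in tumours (median 10.5), and its size depends on the length used. P4ha2 alone did not overlap either, and how often ratios of other gene pairs fail to overlap was not computed. Within a library such a ratio shows unequal levels and does not say which of the 2 changed.

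The other prolyl hydroxylases of collagen were low and variable. P4ha3, another catalytic subunit, ran from 2.12 to 9.22 CPM in tumours and from 3.4 to 3.81 in normal brain (log2 fold change 0.78, SE 0.44, edgeR adjusted p = 0.31). P3h2, a prolyl 3-hydroxylase of basement membrane collagen, ran from 3.8 to 11.8 and from 3.24 to 4.85 CPM (0.99, SE 0.36, adjusted p = 0.13). Its paralogs P3h1 and P3h3 differed by 0.22 (adjusted p = 0.58) and -0.38 (adjusted p = 0.36). For P3h2, 28.4% of the exon bases are shared with another gene.

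The collagens that these enzymes modify were described from a list of 16 genes, of which edgeR called 4 higher and 0 lower in tumours, with a median log2 fold change of 0.82. They included the basement membrane chains Col4a1 (1.96, adjusted p = 0.011) and Col4a2 (1.32, adjusted p = 0.015), together with Col11a1 (2.73, adjusted p = 0.019) and Col8a1 (0.95, adjusted p = 0.049). Of 8 partners in collagen assembly 2 were called higher, the cross-linking oxidases Lox (1.68, adjusted p = 0.049) and Loxl2 (3.33, adjusted p = 0.033). Markers of several cell types were also called higher: 5 of 10 endothelial, 3 of 8 pericyte and 8 of 10 oligodendrocyte precursor markers. Of 7 tested fibroblast markers 1 was called higher, Pdgfra, which is also a precursor marker, so no marker of the fibroblast list alone was called. The endothelial markers summed to 151 to 175 CPM in normal brain and 205 to 358 CPM in tumours, and the pericyte markers to 174 to 180 CPM and 216 to 954 CPM, with none of either list at 0 in any library. The precursor markers summed to 504 to 533 CPM and 536 to 6720 CPM, and the 9 fibroblast markers to 114 to 192 CPM and 117 to 1740 CPM; the precursor list shares Cspg4 with the pericyte list and Pdgfra with the fibroblast list. Their part in the levels of the collagen hydroxylases was not tested.

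**Figure D2:**
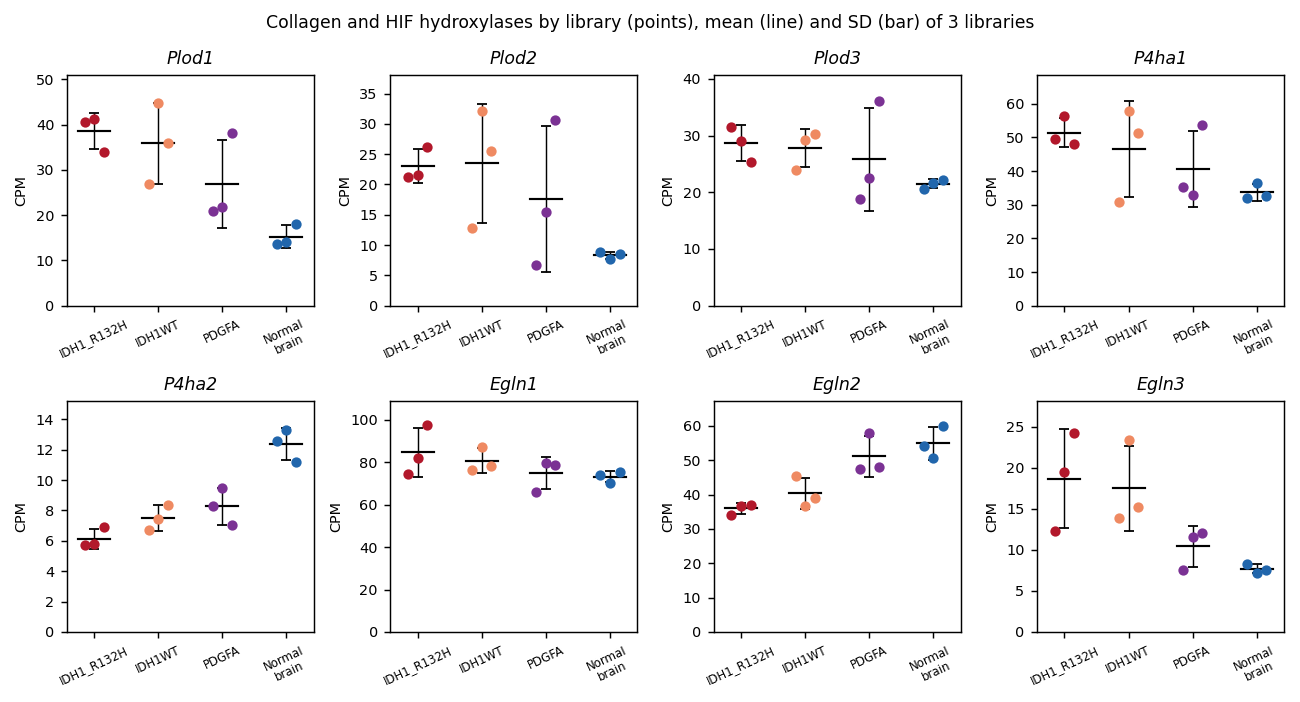
CPM of 8 collagen and HIF hydroxylase genes in each library (points), by group, with the mean (horizontal line) and SD (bar) of 3 libraries; each vertical axis starts at 0. Plod1 is higher and P4ha2 lower in all 9 tumours than in the 3 normal brains, and Egln2 is lowest in IDH1_R132H tumours at 34.2 to 37.1 CPM.

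HIF hydroxylases mark the alpha subunits of HIF for destruction, or block their activity, when oxygen is present. Egln1, Egln2 and Egln3 are the 3 HIF prolyl hydroxylases, and Hif1an is the asparaginyl hydroxylase. Egln3, a gene known to be induced by HIF itself, was higher in tumours. It stood at 12.3, 19.5 and 24.3 CPM in IDH1_R132H tumours, 13.9, 23.4 and 15.2 in IDH1WT, 7.6, 11.6 and 12.1 in PDGFA, and 8.31, 7.24 and 7.53 in normal brain. PDGFA 1 lay among the normal brains and the other 8 tumours above them. The log2 fold change was 0.97 (SE 0.25, edgeR adjusted p = 0.043), and 0.96 without IDH1_R132H 3 and PDGFA 1. This call sat at the threshold: it held in 3 of the 12 fits that left out 1 library (without IDH1_R132H 1, IDH1WT 1 or PDGFA 1), and the adjusted p ranged from 0.013 to 0.2 over the 12.

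Egln3 was 1.27 higher in IDH1_R132H than in normal brain (SE 0.29, edgeR adjusted p = 0.026). With the same normal brains the estimate was 1.18 for IDH1WT (SE 0.29, adjusted p = 0.058) and 0.45 for PDGFA (SE 0.29, adjusted p = 0.64). Set directly against PDGFA tumours, IDH1_R132H tumours stood 0.83 above (SE 0.28, adjusted p = 0.37) and IDH1WT tumours 0.74 above (SE 0.28, adjusted p = 0.81), neither past the test.

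Egln2 showed the opposite arrangement. Its level was 34.2, 36.8 and 37.1 CPM in IDH1_R132H tumours, 45.3, 36.7 and 39 in IDH1WT, 47.6, 57.9 and 47.9 in PDGFA, and 54.2, 50.6 and 59.9 in normal brain. IDH1_R132H tumours lay below all PDGFA tumours and all normal brains and overlapped IDH1WT tumours. Against normal brain Egln2 fell by 0.61 on the log2 scale in IDH1_R132H (SE 0.14, edgeR adjusted p = 0.029), a call that held in 6 of the 12 fits without 1 library and was lost without any single IDH1_R132H tumour or normal brain. With no filter on low counts its adjusted p was 0.096. All 9 tumours together differed by -0.38 (SE 0.11, edgeR adjusted p = 0.066). DESeq2 called this difference (DESeq2 adjusted p = 0.028), where it called 11.7% of all genes. Egln2 was also the gene of the 50 with the smallest p in IDH1_R132H against the other tumours, at -0.33 (SE 0.13, edgeR adjusted p = 0.73).

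Egln1, the main HIF prolyl hydroxylase in most tissues, did not pass the test in tumours against normal brain. It stood at 74.5, 82 and 97.5 CPM in IDH1_R132H tumours, 76.4, 87.4 and 78.2 in IDH1WT, 66.1, 79.5 and 78.8 in PDGFA and 74, 70.4 and 75.4 in normal brain. Normal brain overlapped the IDH1_R132H and PDGFA tumours, and the IDH1WT tumours lay just above it. Its difference was 0.13 (95% confidence interval -0.13 to 0.38, SE 0.12, edgeR adjusted p = 0.55). Per kilobase Egln1 (median 21.5) and Egln2 (16.6) were the most abundant HIF hydroxylases and Egln3 (4.58) the least. The ratio of Egln3 to Egln2 per kilobase was 0.132 to 0.162 in normal brains and 0.168 to 0.686 in tumours, without overlap. That of Egln1 to Egln2 was 0.981 to 1.08 in normal brains and 1.07 to 2.04 in tumours, with overlap. How often ratios of other gene pairs fail to overlap was not computed. Hif1an differed by -0.12 (adjusted p = 0.57) and P4htm, a membrane-bound prolyl hydroxylase, by -0.3 (adjusted p = 0.41).

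Among 6 genes for HIF subunits and VHL, edgeR called Epas1, which encodes HIF-2 alpha, higher (0.78, adjusted p = 0.031), and the median of the list was 0.13. Of 14 genes known as HIF targets 2 were called higher and 0 lower, with a median of 0.41: the vasodilator peptide gene Adm (3.31, adjusted p = 0.032) and the stress-response gene Ddit4 (1.15, adjusted p = 0.017). Between IDH1_R132H and IDH1WT tumours none of the 20 genes of these lists was called.

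Histone demethylases of the JmjC family remove methyl groups from lysines of histone H3. None of the 16 that act on H3K4, H3K9, H3K27 or H3K36 was called by edgeR in tumours against normal brain. An unadjusted p under 0.05 was found for 5 (Kdm4a, Kdm5c, Kdm2b, Kdm6b and Kdm3a), all with a positive difference. Of all genes 23.6% had such a p, 13.3% with a positive difference. The 5 of 16 with a positive difference are a larger share than that 13.3%. Whether these genes moved as a group was not tested, so the 5 are not read as a shared trend. The 5 genes of the H3K36 and H3K4 group had a median log2 fold change of 0.16, and the 9 of the H3K9 group also 0.16. Kdm4a, an H3K9 and H3K36 demethylase, and Kdm5c, an X-linked H3K4 demethylase, were higher in all 9 tumours than in all 3 normal brains. Together with Plod1 they made 3 of the 50 genes without overlap in that direction, and P4ha2 was the 1 in the other, against 4.67% and 2.84% of all genes.

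Kdm5c was the most abundant H3K4 or H3K36 demethylase per kilobase (median 13.2). It stood at 95.9, 137 and 95.5 CPM in IDH1_R132H tumours, 102, 100 and 91.9 in IDH1WT, 89.9, 88.3 and 108 in PDGFA, and 85.1, 71.7 and 70.6 in normal brain. IDH1_R132H 2 stood apart from the rest at 137 CPM. The difference between tumours and normal brain was 0.41 (SE 0.14, edgeR adjusted p = 0.098). Kdm4a ran from 48.2 to 71.9 CPM in tumours and from 41.6 to 44.5 in normal brain, a difference of 0.46 (SE 0.14, adjusted p = 0.079). DESeq2 called both.

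The X chromosome carries Kdm5c, the H3K27 demethylase Kdm6a and the H3K9 demethylase Phf8, and for the first 2 a Y-linked relative exists, Kdm5d and Uty. The labels give no sex, and 2 of the 12 libraries differed from the other 10 in sex-linked RNA. IDH1_R132H 2 held 19062 reads of Xist, the RNA of the inactive X, with 0 of Kdm5d and 0 of Uty. IDH1WT 1 held 12269 of Xist, 0 of Kdm5d and 3 of Uty. The other 10 held 10 to 284 reads of Xist, 189 to 597 of Kdm5d and 216 to 705 of Uty. Kdm6a stood at 32.8, 46.7 and 28.2 CPM in IDH1_R132H tumours, 47.8, 37.1 and 43.1 in IDH1WT, 40.4, 35.1 and 48.9 in PDGFA, and 41.7, 40.8 and 37.7 in normal brain. In each of the IDH1 groups the library with high Xist had the highest Kdm6a and the highest Kdm5c of its 3. Over all 12 libraries Kdm6a was highest in PDGFA 3 (48.9 CPM), which had 10 reads of Xist and also more Kdm5c than IDH1WT 1. The part of sex in these levels was not tested.

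Without those 2 libraries, a setting chosen after the data were seen, the tumour difference of Kdm5c was 0.34 (SE 0.13, edgeR adjusted p = 0.16). The Kdm5c difference between IDH1_R132H and IDH1WT tumours, 0.16 over all libraries, became 0.02. For Kdm6a that difference went from -0.24 to -0.37 (adjusted p = 1 in both fits). The same setting left 1 gene of the 50 called in tumours against normal brain (Plod1) and 0 in IDH1_R132H against normal brain, where P4ha2 stood at -0.96 (adjusted p = 0.093).

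**Figure D3:**
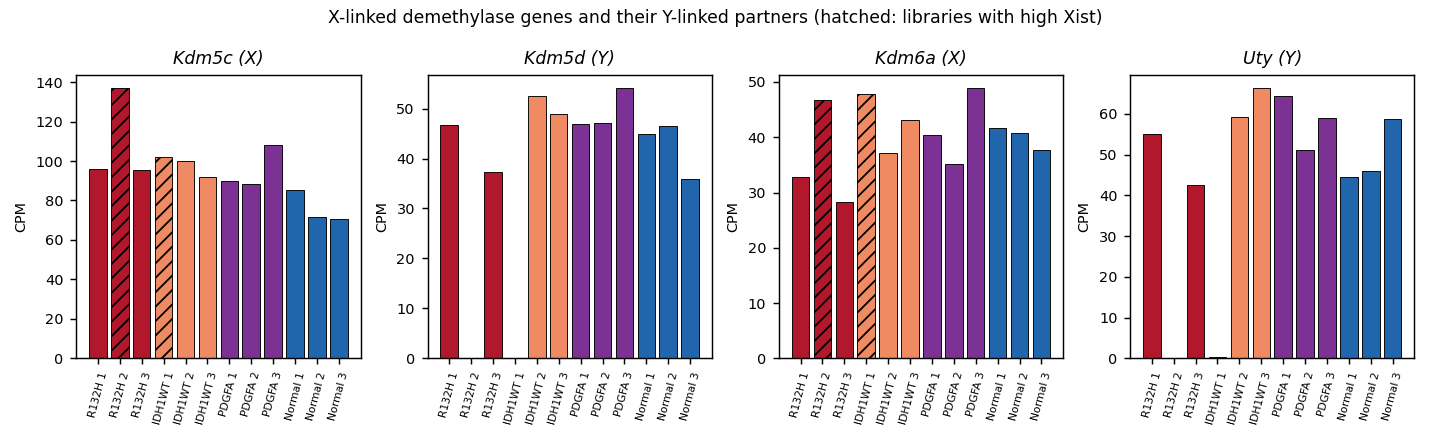
CPM of the X-linked demethylase genes Kdm5c and Kdm6a and of their Y-linked relatives Kdm5d and Uty in each of the 12 libraries (bars, coloured by group, axes from 0); hatched bars are the 2 libraries with 12269 and 19062 Xist reads. Those 2 libraries have hardly any Kdm5d or Uty, and IDH1_R132H 2 has the highest Kdm5c bar at 137 CPM.

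Kdm6b, the other active H3K27 demethylase and a gene known to respond to inflammatory signals, was the more abundant of that group per kilobase (median 8.04). It stood at 56, 63.1 and 76.6 CPM in IDH1_R132H tumours, 41.1, 55.5 and 95.3 in IDH1WT, 55.8, 64.1 and 80.6 in PDGFA and 54.4, 45.8 and 33.7 in normal brain. The groups overlapped, with IDH1WT 1 below 2 of the normal brains, and the difference was 0.55 (SE 0.24, edgeR adjusted p = 0.18). Kdm7a, an H3K9 and H3K27 demethylase with a plant homeodomain, was the most abundant of the H3K9 group per kilobase (median 15.7). Its levels of 154, 158 and 158 CPM in IDH1_R132H tumours, 156, 130 and 171 in IDH1WT, 157, 163 and 131 in PDGFA and 167, 180 and 157 in normal brain overlapped (-0.13, SE 0.12, adjusted p = 0.54).

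Of the remaining demethylases, Kdm2b and Kdm3a differed by 0.44 (edgeR adjusted p = 0.15) and 0.39 (adjusted p = 0.2). Kdm2a, Kdm5a, Kdm5b, Kdm3b, Kdm4b, Kdm4c, Phf2, Phf8 and Jmjd1c lay between 0.04 and 0.26, with adjusted p from 0.35 to 0.9. Enzymes on the other side of the balance gave no more calls: 0 of 21 histone lysine methyltransferases were called, with a median of -0.01. Of the 21, 3 had an unadjusted p under 0.05, against 23.6% of all genes. Of the FAD-dependent demethylases, Kdm1a and Kdm1b differed by 0.24 (adjusted p = 0.27) and 0.47 (adjusted p = 0.2). Among 15 other 2-oxoglutarate dioxygenases Tet1, which oxidises 5-methylcytosine, was the 1 called, at 0.72 (adjusted p = 0.035), beside Tet2 at 0.07 and Tet3 at 0.03.

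The 4 other JmjC proteins act mainly as hydroxylases. Jmjd6, which hydroxylates lysines of splicing factors, was the most abundant of them per kilobase (median 4.44). It stood at 26.8, 21.2 and 21.9 CPM in IDH1_R132H tumours, 20.4, 24.6 and 26.4 in IDH1WT, 16.9, 20.4 and 37.1 in PDGFA and 20.6, 20.2 and 16.8 in normal brain, with overlap (0.32, SE 0.21, edgeR adjusted p = 0.39). The ribosomal oxygenases Riox1 and Riox2 differed by -0.1 and 0.21 (adjusted p = 0.78 and 0.61), and another gene covers 31.9% and 22.4% of their exon bases. Kdm8 was among the lowest of the 50, with 5 reads in IDH1_R132H 3, and differed by -0.37 (adjusted p = 0.43).

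Most AlkB enzymes remove methyl groups from nucleic acids, and 0 of the 9 family members were called by edgeR in tumours against normal brain. At an unadjusted p under 0.05 there was 1 (Alkbh6, -0.53, adjusted p = 0.16), against 23.6% of all genes. Alkbh5, an RNA N6-methyladenosine demethylase, was the most abundant of them per kilobase of merged exons (median 19.1). It stood at 117, 130 and 146 CPM in IDH1_R132H tumours, 119, 122 and 112 in IDH1WT, 102, 128 and 110 in PDGFA and 109, 102 and 91.4 in normal brain. PDGFA 1 overlapped the normal brains, and the difference was 0.26 (SE 0.12, adjusted p = 0.21). Fto, the other demethylase of this mark, ran from 121 to 170 CPM in tumours and from 135 to 149 in normal brain, a difference of -0.03 with a 95% confidence interval of -0.32 to 0.26.

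Alkbh3, which repairs alkylated DNA and RNA, was lower in each IDH1_R132H tumour than in each of the other 6 tumours. It stood at 9.95, 10.1 and 8.29 CPM in IDH1_R132H, 10.8, 13 and 12 in IDH1WT, 13.9, 11.8 and 12.1 in PDGFA and 10, 16.6 and 12.9 in normal brain. It was the 1 gene of the 50 without overlap in that comparison, where 1.31% of all genes were as clearly lower and 1.01% higher. The difference of -0.37 (SE 0.19, edgeR adjusted p = 0.77) did not pass. Normal brain overlapped both sets of tumours, and IDH1_R132H 1 and 3 lay below its lowest value (-0.47, SE 0.21, adjusted p = 0.18 for IDH1_R132H against normal brain). Alkbh1, Alkbh4, Alkbh7 and Alkbh8 differed from normal brain by -0.36 to 0.1. Alkbh2, which had as few as 3 reads in a library and shares 29.5% of its exon bases with another gene, differed by -0.57 (SE 0.42).

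The OGFOD genes were level or lower in tumours without a call. Ogfod1, which hydroxylates a proline of a ribosomal protein, was the most abundant of all 50 per kilobase of merged exons (median 21.6); per kilobase of longest transcript Fto (28.4) and Jmjd1c (24.3) stood above it (23.8). It stood at 93.9, 96.7 and 128 CPM in IDH1_R132H tumours, 133, 88.4 and 91.8 in IDH1WT, and 139, 135 and 83 in PDGFA, and normal brain at 130 ± 4.22 (SD, n = 3) with a lowest value of 125. IDH1_R132H 3, IDH1WT 1, PDGFA 1 and PDGFA 2 lay above that lowest value and the other 5 tumours below it (-0.24, SE 0.18, edgeR adjusted p = 0.44). Ogfod2 and Ogfod3 differed by -0.35 (adjusted p = 0.31) and 0.12 (adjusted p = 0.8).

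The 4 remaining enzymes each had an unadjusted p under 0.05 in tumours against normal brain, where 23.6% of all genes did. None of them was called, and 1 of the 4 was higher. Phyh, the peroxisomal phytanoyl-CoA hydroxylase, was the most abundant of them per kilobase (median 17). It stood at 32, 27.2 and 35.5 CPM in IDH1_R132H tumours, 43.2, 32.2 and 32 in IDH1WT, 29.5, 30.7 and 23.1 in PDGFA and 38.1, 38.9 and 48.5 in normal brain. All tumours except IDH1WT 1 lay below the normal brains (-0.41, SE 0.15, edgeR adjusted p = 0.12). Asph, which hydroxylates EGF-like domains, ran from 97.8 to 172 CPM in tumours and from 164 to 183 in normal brain (-0.5, SE 0.17, adjusted p = 0.094).

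Bbox1 and Tmlhe encode the last and the first enzyme of carnitine synthesis, and their estimates against normal brain had opposite signs, with overlap for both. Bbox1 was the lowest of the 50 per kilobase (median 0.446), at 1.77, 1.02 and 1.97 CPM in IDH1_R132H tumours, 2.58, 1.95 and 2.54 in IDH1WT, 0.671, 0.912 and 1.27 in PDGFA and 2.43, 2.3 and 2.71 in normal brain. PDGFA tumours lay below all normal brains and all IDH1WT tumours, with 6 to 14 reads each. The estimate for PDGFA against normal brain was -1.36 (SE 0.36, edgeR adjusted p = 0.13), and for all tumours -0.7 (SE 0.27, adjusted p = 0.14). Tmlhe ran from 2.98 to 8.29 CPM in tumours and from 3.4 to 4.2 in normal brain (0.68, SE 0.31, adjusted p = 0.2).

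The comparison that the study's title implies set IDH1_R132H against IDH1WT tumours, which share no libraries. By edgeR, the test called 0 of the 50 genes and 0% of all genes, and 0 of the 50 had an unadjusted p under 0.05, against 2.67% of all genes. DESeq2 and limma voom also called 0 of the 50 and 0% of all genes. The log2 fold changes of the 50 ran from -0.72 to 0.37 with a median of -0.02. For 46 of the 50 the 95% confidence interval lay within 2-fold in either direction, and for 22 within 1.5-fold; Kdm8, P4ha3, Alkbh2 and Bbox1 reached beyond 2-fold. A difference smaller than those intervals was not detectable with 3 libraries a group.

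The 3 genes with the smallest p in that comparison were Bbox1, Kdm8 and Alkbh3. Bbox1 differed by -0.61 (SE 0.36, 95% confidence interval -1.38 to 0.16) and Alkbh3 by -0.33 (SE 0.21, -0.79 to 0.12), both with an edgeR adjusted p of 1. Without IDH1_R132H 2 the Bbox1 difference was -0.35. Kdm8 stood at 2.59, 2.65 and 0.987 CPM in IDH1_R132H tumours, 2.45, 4.15 and 3.11 in IDH1WT, 2.79, 2.82 and 3.08 in PDGFA and 3.58, 3.62 and 3.33 in normal brain. Its difference was -0.58 (SE 0.35, -1.33 to 0.18, adjusted p = 1); it was -0.29 without IDH1_R132H 3, -0.37 without IDH1WT 2 and -0.28 without IDH1_R132H 3 and PDGFA 1. The 2 groups overlapped for Bbox1 and Kdm8 and did not for Alkbh3, where 3.79% of all genes were lower without overlap and 2.96% higher.

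Against IDH1WT and PDGFA tumours weighted equally, IDH1_R132H tumours again gave 0 calls among the 50 and 0% among all genes by edgeR. Egln2 alone had an unadjusted p under 0.05, against 6.44% of all genes; DESeq2 and limma voom called 0 of the 50, against 0.135% and 1.38% of all genes. The next smallest p belonged to P4ha2 (-0.36, SE 0.18, adjusted p = 0.77) and Alkbh3. Against PDGFA alone, edgeR and DESeq2 called 0, with 2 of the 50 at an unadjusted p under 0.05 (10.9% of all genes), Egln2 (-0.51, SE 0.14, adjusted p = 0.32) and Egln3. Of all genes DESeq2 called 0.909%, and limma voom, which called Egln2, 2.22%. IDH1WT against PDGFA gave 0 calls by edgeR, DESeq2 and limma voom and 3 genes at an unadjusted p under 0.05, Bbox1, Egln3 and Egln2, against 5.83% of all genes; of all genes DESeq2 called 0.0817% and limma voom 0%.

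**Figure D4:**
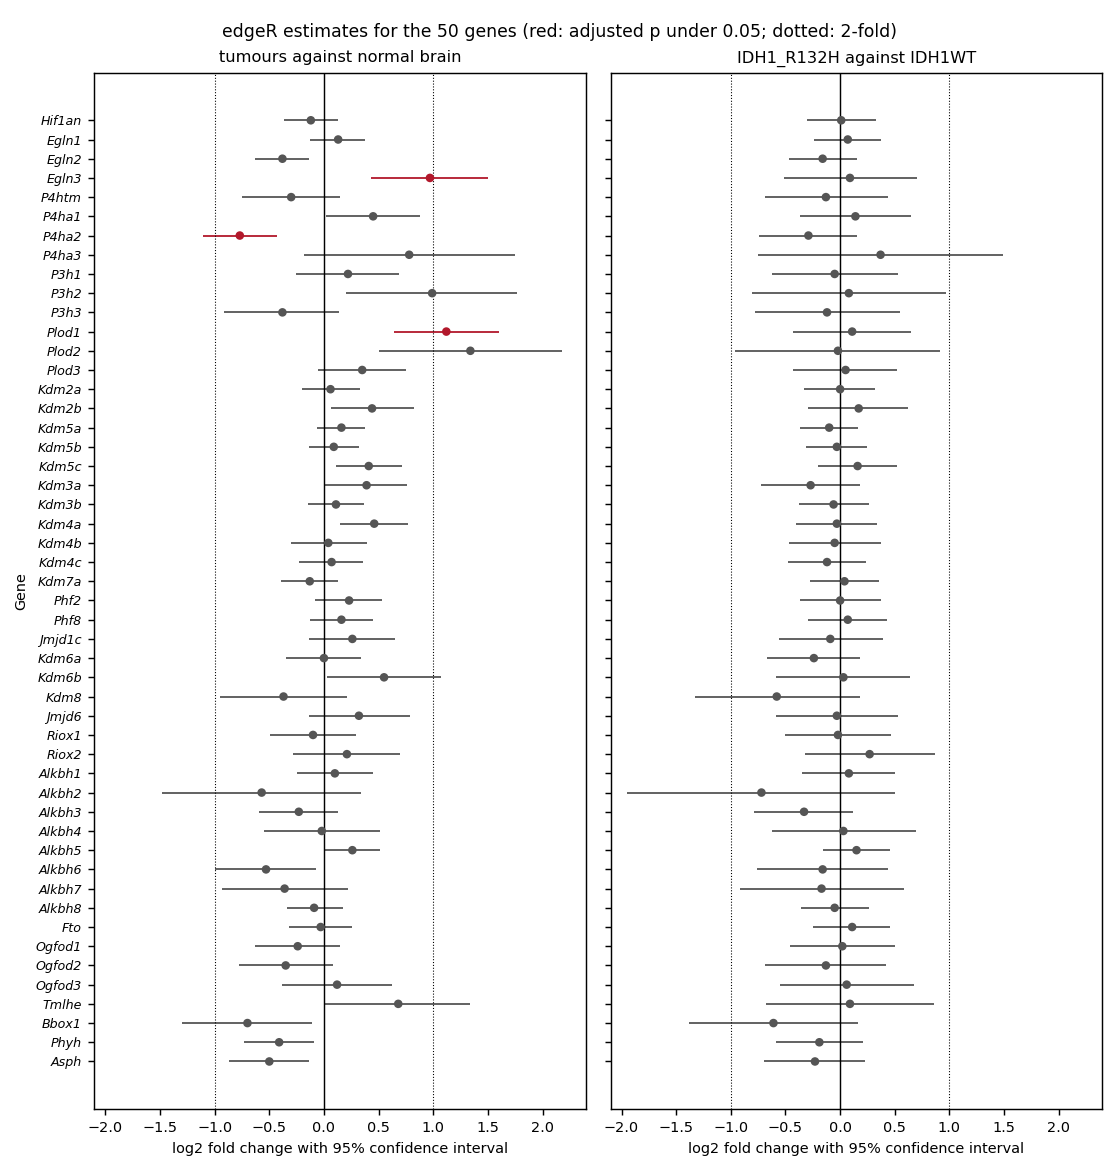
Log2 fold change (points) with its 95% confidence interval (bars) from edgeR for each of the 50 genes, in tumours against normal brain (left) and IDH1_R132H against IDH1WT (right); red marks an adjusted p under 0.05 and dotted lines mark 2-fold. Plod1, Egln3 and P4ha2 are red on the left, no gene is red on the right, and 46 of 50 intervals on the right lie within the dotted lines.

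Each tumour group was also set against the same 3 normal brains. IDH1_R132H gave 4 calls by edgeR (Plod1 and Egln3 higher, P4ha2 and Egln2 lower) where 7.17% of all genes were called, 4.83% higher and 2.35% lower. IDH1WT gave 1, Plod1, against 1.72% of all genes, and PDGFA 0, against 0.303%, with 8 at an unadjusted p under 0.05, against 10.6%. None of the 4 calls in IDH1_R132H held without IDH1_R132H 2 or without any 1 normal brain, and the call of Plod1 in IDH1WT held in 5 of the 12 fits that left out 1 library. DESeq2 called 7 of the 50 in IDH1_R132H against 13.7% of all genes, and 4 in IDH1WT against 7.15%. The 3 comparisons share normal brains, and the direct comparisons between tumour groups gave no call among the 50 by edgeR or DESeq2. By limma voom there was 1 call, Egln2 in IDH1_R132H against PDGFA. These unequal counts against normal brain therefore do not show that the groups differed.

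The enzymes that supply or consume 2-oxoglutarate and 2-hydroxyglutarate were read from a list of 14 genes, 2 of which edgeR called higher in tumours against normal brain. Idh1 ran from 52.2 to 70.7 CPM in IDH1_R132H tumours, 39.1 to 56.3 in IDH1WT, 22.2 to 46.7 in PDGFA and 22.5 to 27 in normal brain (0.92, SE 0.21, adjusted p = 0.031). IDH1_R132H and IDH1WT tumours lay above all normal brains, and PDGFA tumours overlapped them. Whether reads of any IDH1 introduced into the tumours were counted at Idh1 was not tested. Idh2, its mitochondrial relative, differed by 0.33 (adjusted p = 0.33). Gpt2, a transaminase that yields 2-oxoglutarate, was the other gene called (1.28, adjusted p = 0.049). The mutation cannot be read from gene counts, and Idh1 differed between IDH1_R132H and IDH1WT tumours by 0.3 (SE 0.24, adjusted p = 1).

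Levels varied more among tumours than among normal brains. The coefficient of variation over the 9 tumours exceeded that over the 3 normal brains for 47 of the 50 genes, with medians of 18.8% and 8.54%, and the tumours come from 3 groups. The share over all tested genes was not computed, so this count cannot be read as a trait of the 50 genes. Per kilobase 11 genes had a median of at least 10 CPM and 7 a median under 2. In 30 of the 50 every library held at least 100 reads, and in 3 the smallest count was under 10, so the low genes Bbox1, Kdm8 and Alkbh2 carry the least precise values.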

How the data were processed

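RNA had been sequenced from 12 fixed and embedded mouse brain samples, 3 per group. The deposited table holds raw read counts per gene. Per the submitters' processing notes, the tools were STAR 2.5.2b with Subread and featureCounts 1.5.1, and DESeq2 1.16.1, on the build GRCm38. Which annotation, strand setting and rule for multiply mapped reads were used is not given in the sources used here. Genes with overlapping exons are therefore uncertain, among them 9 of the 50 with over 10% of their exon bases overlapped. The authors also deposited log2 values (regularized log) for 23792 genes, 49 of the 50 among them; these served as an alternative.

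Symbols and coordinates were taken from GENCODE M21, which matched 49412 of the 49671 identifiers. In R 4.3.3, edgeR 4.0.16 was run on the counts: filterByExpr (minimum count 10, minimum total 15), TMM scaling, which assumes that the typical gene does not change, and a robust quasi-likelihood fit. The fit had 1 coefficient per group over 12 libraries (8 residual degrees of freedom) and gave 8 comparisons. P-values were adjusted by Benjamini-Hochberg over all 17812 tested genes, and called means an adjusted p under 0.05. Biological variation had a common coefficient of 26.5%. Over the 50 genes the SE had a median of 0.176 in tumours against normal brain, while IDH1_R132H against IDH1WT had 0.216. CPM uses TMM-adjusted library sizes, and levels per kilobase divide CPM by the merged exon length. Samples were grouped by the labelled tumour genotype. The procedure was tested on simulated data. Alternatives used DESeq2 1.42.0, limma 3.58.1, other filters and scalings, and left out libraries. Promoter letters came from RefSeq's table, in which 10 of the 50 genes had no entry.

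The genes and lists were chosen with earlier results of these data known. Genes given in full are those called in any comparison, the 3 with the smallest p in IDH1_R132H against IDH1WT and against other tumours, and the most abundant per kilobase of each role. Plod2, Kdm4a, Kdm6a, Asph, Fto, Tmlhe and the ratios between paralogs were described after their values were seen.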

Additional observations from a re-analysis of the deposited data

How the results depend on the processing

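Every alternative kept the direction of the called genes and of the genes with the smallest p given for the comparisons between tumours. Of the 50 genes, the number called (share of all genes called by the same fit in brackets) was 3 in tumours against normal brain (5.22%); it was 5 with no filter on low counts (5.19%), 7 with DESeq2 (11.7%), 18 with limma voom and sample weights (33.7%), 8 without IDH1_R132H 3 and PDGFA 1 (15.7%), and 1 without the 2 libraries with high Xist (3.29%), a setting chosen after seeing the data. Leaving out 1 library at a time gave 0 to 6, with 0 without any of the normal brains and 6 without IDH1WT 1 (7.12%) or PDGFA 1 (13.5%). For IDH1_R132H against normal brain (4 called) the number was 7 with DESeq2 (13.7%), 22 with limma voom (41.1%), 12 with only these 2 groups fitted (20.3%) and 0 without the libraries with high Xist (0.486%); leaving out 1 library gave 0 to 7, with 0 without IDH1_R132H 2 or any normal brain. For IDH1WT against normal brain (1 called) it was 3 with no filter (3.66%), 4 with DESeq2 (7.15%), 9 with limma voom (16.9%), 0 with limma on the rlog values (0.206%), 3 with only these groups (8.53%) and 3 without IDH1_R132H 3 and PDGFA 1 (6.96%); leaving out 1 library gave 0 to 3. For PDGFA against normal brain (0 called) it was 2 with no filter (2.25%) and 1 without IDH1_R132H 3 and PDGFA 1 (5.19%), and leaving out 1 library gave 0 to 1. IDH1_R132H against PDGFA gave 0, and 1 with limma voom (Egln2, -0.58, adjusted p = 0.045, 2.22%). IDH1_R132H against IDH1WT, IDH1_R132H against the other tumours and IDH1WT against PDGFA gave 0 under every alternative run. The cause of these moves was not tested; leaving out libraries also leaves fewer samples. Another scaling moved the median gene by 0.01 or less. Dividing by the longest transcript in place of merged exons moved the level of Phyh from 17 to 22.3 and of Plod3 from 5.43 to 7.49 CPM per kilobase, and made Fto, Jmjd1c and Egln2 the most abundant of their roles in place of Alkbh5, Kdm7a and Egln1. The same change moved Plod1 from 4.5 to 7.43 and P4ha2 from 1.26 to 2.57 CPM per kilobase. No paired analysis was possible because the labels carry no replicate numbers that groups share. Depth limits the genes with fewest reads, Alkbh2, Kdm8 and Bbox1.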
